A study of Arabidopsis thaliana with 9 samples.

Results

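The genes described here were raised by a similar amount in both Arabidopsis lines with reduced phytochrome activity, 35S::pBVR3 and CAB3::pBVR2, relative to the wild type, No-0 WT. They were 79 of 22746 probe sets on the ATH1 array, a probe set being the group of short probes that reads 1 transcript or a few close copies. A probe set was taken when its mean signal was at least 100 in both pBVR lines, its mean log2 signal was at least 1.5 above No-0 WT in each, no array of either line overlapped with a No-0 WT array, and the 2 lines differed by less than 0.9 on the log2 scale. The members were thus chosen by their signals on all 9 arrays and by the differences between the lines. The levels and the differences between the lines are therefore given as a description of the members. Where members that pass a test are counted below, the rule had used the same values, and nothing is read from the count. Both increases were measured against the same 3 No-0 WT arrays, and a low reading on those arrays would raise both.

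RNA was prepared from whole seedlings grown for 7 days in continuous far-red (FRc) light, after a red pulse of 5 min and 3 days at 4 °C in darkness, and each of the 9 arrays carried a separate RNA extraction, with 3 arrays for each line. No-0 WT carried no transgene. In 35S::pBVR3 the BVR gene was driven by the 35S promoter, which is active in nearly all cells, and in CAB3::pBVR2 by the CAB3 promoter, which is active in mesophyll, so that the phytochromes were inactivated constitutively or in mesophyll cells. Each construct was represented by 1 transgenic line, so that an effect of the construct and an effect of the line cannot be told apart. The BVR transgene itself was not analysed here. The labels do not say whether the 3 extractions of a line came from separate sowings, so that the spread between arrays may be technical.

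Phytochromes are red and far-red photoreceptors that sense light through a linear tetrapyrrole (bilin) chromophore, and in FRc light it is phytochrome A that halts hypocotyl elongation and drives de-etiolation. Biliverdin reductase (BVR) reduces the bilin precursors of that chromophore, which leaves phytochromes without a functional chromophore wherever the enzyme is made. Among the processes that phytochromes restrain are auxin responses and the cell wall remodelling that accompanies cell elongation.

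The members that could be named had varied functions. The platform annotation gave 1 gene for 40 of the 79 probe sets, several genes for 2 and none for 37, and the latter are reported by their probe set identifier. The named members with a known product included a repressor of auxin responses (IAA20), cell wall enzymes (ATPMEPCRD, PRX72, PRX25), enzymes of amino acid and sulphur metabolism (LKR/SDH, GAT1_2.1, STR18), a glucosyltransferase (UGT71C1), a lectin (JAL22) and a member of a DNA-binding family (REM24). None of the 40 members with 1 named gene belonged to any of the 17 pathway lists examined, although those lists were measured only in part. The lists held genes of hormone responses, light signalling, cell wall loosening, stress and metabolism. The 37 members without a gene name and the 2 with several genes could not be compared with the lists.

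The differences from No-0 WT had a median of 1.85 on the log2 scale in 35S::pBVR3 and 2.35 in CAB3::pBVR2. They ran from 1.52 to 4.09 and from 1.59 to 3.71 over the 78 members that were above background, the level of the brightest bacterial control probe set on an array, on at least 1 No-0 WT array. The remaining member, AT1G05770, has only a lower bound. Over all 15436 probe sets kept by the signal filter, the corresponding medians were -0.03 and 0.02. As folds, computed from mean log2 signals, these 78 members were 2.87-fold to 17.1-fold higher in 35S::pBVR3 and 3.00-fold to 13.1-fold higher in CAB3::pBVR2, and the medians over all members were 3.60-fold and 5.12-fold. In both lines at once, 24 members were at least 4-fold higher and 2 were at least 8-fold higher, namely 251428_at and AT4G11190, with AT1G05770 counted at its bound. With No-0 WT readings below background set to it, AT2G15010, AT5G40020, 262310_at, AT4G01390, REM24, AT1G66440 and 246254_at no longer reached 4-fold in both lines. Their smaller fold was then 2.92 to 3.66. Of all 22746 probe sets, 8.3% had every array of both pBVR lines above every No-0 WT array, and 0.932% also had a log2 difference of at least 1.5 in both. The heat map of all members shows the 3 No-0 WT arrays as 1 pale block and the 6 pBVR arrays as a darker one.

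**Figure D1:**
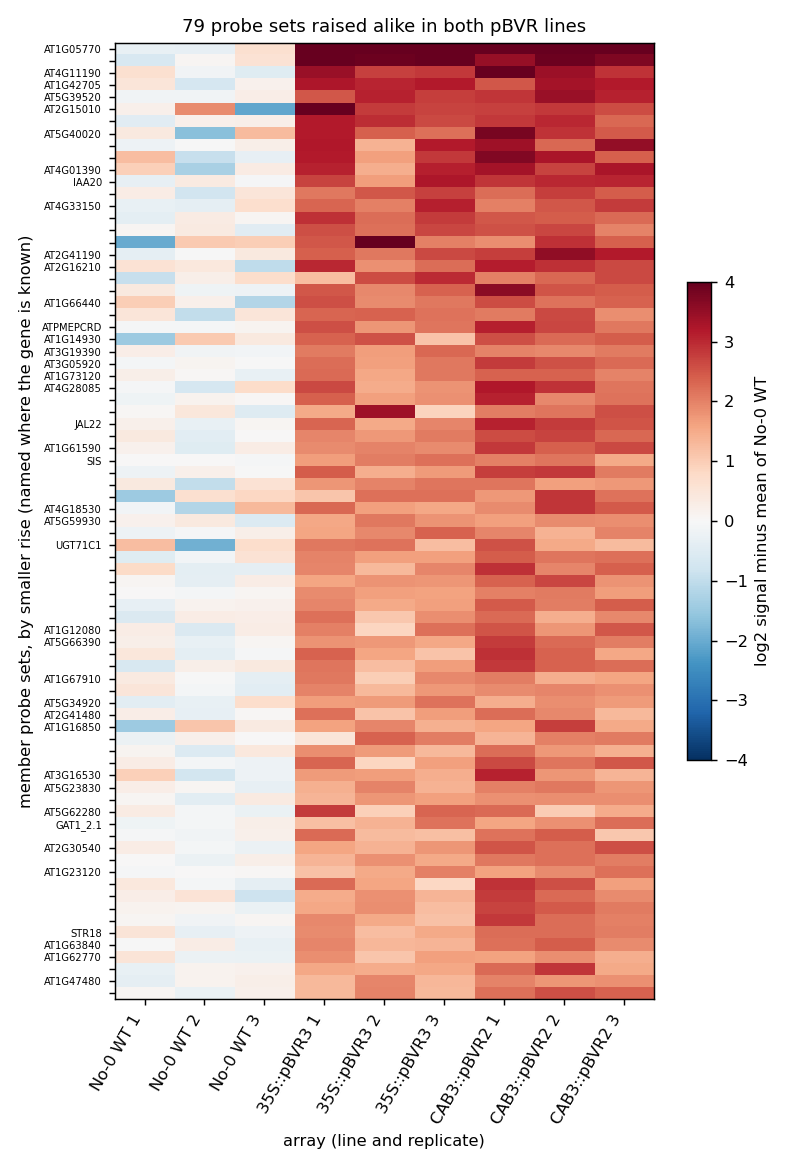
Log2 signal of the 79 members (rows, in order of the smaller of their 2 differences from No-0 WT) on each of the 9 arrays (columns), minus the mean of the 3 No-0 WT arrays, with colours limited to values between -4 and 4. All 6 arrays of the pBVR lines lie above the 3 No-0 WT arrays in every row, as the rule requires, and the spread among the No-0 WT arrays is widest in rows such as AT2G15010 and UGT71C1.

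Of the members, 71 of 79 passed the limma contrast (adjusted p under 0.05 and at least 2-fold) for 35S::pBVR3 over No-0 WT and 77 of 79 for CAB3::pBVR2, where 2.31% and 8.58% of all kept probe sets were called higher. These counts follow from the rule, which used the same contrasts, and nothing is read from them. The mirrored rule, with both lines at least 1.5 below No-0 WT and the same limits otherwise, found 5 probe sets.

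The path to the 79 members went through several limits. In all, 348 probe sets were at least 1.5 higher in both lines at any signal, 118 of these had a mean signal of at least 100 in both, and 108 of those had no overlap with No-0 WT. Among the 108, CAB3::pBVR2 was the higher line by 0.9 or more for 25 and 35S::pBVR3 for 4, which left the 79. A further 9 probe sets met every limit but that on overlap. The scatter plot of both differences shows the members in the band between the limits, at the upper right of a cloud that is steeper than the diagonal.

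**Figure D2:**
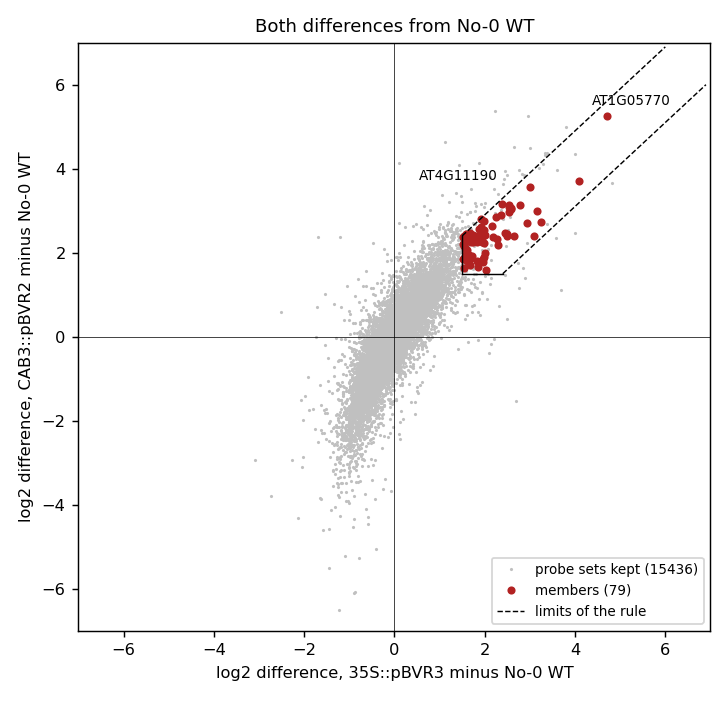
Log2 difference from No-0 WT in CAB3::pBVR2 (vertical axis) against that in 35S::pBVR3 (horizontal axis) for the 15436 probe sets kept (grey) and the 79 members (red), with the limits of the rule drawn in black. The members span 1.52 to 4.09 on the horizontal axis and 1.59 to 3.71 on the vertical axis, apart from AT1G05770, whose point is drawn from No-0 WT readings below background and lies farthest out.

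IAA20 encodes an Aux/IAA protein, a family of transcriptional repressors of auxin responses, and is unusual in lacking the domain through which auxin triggers the breakdown of most of its relatives. Its signals were 41.0, 65.2 and 49.5 on the 3 No-0 WT arrays, 329, 161 and 479.6 on the 35S::pBVR3 arrays and 373, 408 and 420.1 on the CAB3::pBVR2 arrays. The CAB3::pBVR2 arrays were close to one another, whereas the 35S::pBVR3 arrays spread around them and the second was the lowest of the 6. The log2 differences from No-0 WT were 2.53 and 2.97, which is 5.77-fold and 7.85-fold. The other Aux/IAA genes measured under a family name, IAA18, IAA29 and IAA34, were not called in either line (3 genes, limma), and 1 of them had an unadjusted p under 0.05 in each line. IAA29 had a mean of 284 ± 99.9 in No-0 WT, beside 519 ± 208 for 35S::pBVR3 and 443 ± 58.2 for CAB3::pBVR2 (SD, n = 3; adjusted p = 0.13 and 0.126, limma).

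Enzymes that act in the cell wall formed a small group. ATPMEPCRD encodes a pectin methylesterase, which removes methyl groups from wall pectin. It was read at 456, 453 and 509 (No-0 WT), 2801, 1593 and 2088 (35S::pBVR3) and 4109.8, 2983 and 2046 (CAB3::pBVR2). The No-0 WT arrays were nearly equal, and the pBVR lines, which spread more, overlapped with each other. The differences were 2.16 and 2.63 on the log2 scale (4.46-fold and 6.2-fold). Of 3 other pectin methylesterase genes that were measured under a family name, none was called in either line (limma, with an unadjusted p under 0.05 for 0 in 35S::pBVR3 and 1 in CAB3::pBVR2), and their median differences were 0.02 in 35S::pBVR3 and 0.58 in CAB3::pBVR2.

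PRX72 (AT5G66390) and PRX25 (AT2G41480) encode class III peroxidases, secreted enzymes of the wall, of which PRX72 is known for its part in lignin formation. PRX72 had signals of 393, 270.2 and 351 (No-0 WT), 1167, 1103 and 972 (35S::pBVR3) and 2339.8, 1594 and 1390.5 (CAB3::pBVR2). Every CAB3::pBVR2 array was above every 35S::pBVR3 array, by a mean of 0.68 on the log2 scale, and the differences from No-0 WT were 1.69 and 2.37. PRX25 was read at 37.9, 25.4 and 33.1 (No-0 WT), 145, 69.2 and 101 (35S::pBVR3) and 149.9, 119 and 78.4 (CAB3::pBVR2). One of its No-0 WT arrays was not above background, and the pBVR lines overlapped. Its differences were 1.66 and 1.82. The 3 other peroxidase genes measured under a family name, Prx37, PRX52 and AT5G64120, were not called in either line (limma), and 1 of them had an unadjusted p under 0.05 in each.

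JAL22 encodes a jacalin-related lectin, a carbohydrate-binding protein. Its signals were 1774, 1266 and 1636 (No-0 WT), 7719, 4405 and 5914 (35S::pBVR3) and 12948, 10735 and 8818 (CAB3::pBVR2). The 3 lines did not overlap with one another, and JAL22 had the largest difference between the pBVR lines of any member, 0.87 on the log2 scale (95% interval 0.32 to 1.42), just within the limit of 0.9. The differences from No-0 WT were 1.92 and 2.79, or 3.8-fold and 6.93-fold. The rule did not choose the other 2 jacalin-related genes measured under a family name. JAL34 rose from 3582 ± 124 to 7184 ± 481 in 35S::pBVR3 and 8380.3 ± 598 in CAB3::pBVR2 (SD, n = 3), a log2 change of 1.00 (adjusted p = 0.00812, limma) and 1.22 (adjusted p = 0.000171). JAL33 rose in CAB3::pBVR2 by 1.39 (adjusted p = 0.00128, limma), and had a log2 change of 0.38 in 35S::pBVR3 (adjusted p = 0.319). The lines differed in JAL33 by 1.02 on the log2 scale, CAB3::pBVR2 minus 35S::pBVR3 (adjusted p = 0.0229, limma).

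Enzymes of amino acid, nitrogen and sulphur metabolism were also present. LKR/SDH (AT4G33150) encodes a bifunctional enzyme, lysine-ketoglutarate reductase and saccharopine dehydrogenase, that starts the breakdown of lysine. It was read at 653, 628 and 1289 (No-0 WT), 4071, 3264 and 6991 (35S::pBVR3) and 3292, 4499 and 5662 (CAB3::pBVR2). The array with replicate number 3 was the highest in each of the 3 lines, and the pBVR lines overlapped and were nearly equal (2.49 and 2.44 above No-0 WT on the log2 scale).

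GAT1_2.1 encodes a glutamine amidotransferase, one of the enzymes that move nitrogen from glutamine. Its signals were 446, 474 and 594 (No-0 WT), 1143, 1307 and 2255 (35S::pBVR3) and 1480.1, 1761 and 2348 (CAB3::pBVR2). Here too the highest array of every line was number 3, and the differences from No-0 WT were 1.58 and 1.87. STR18 encodes a sulfurtransferase. It was read at 707, 401 and 437 (No-0 WT), 1857, 1166 and 1413 (35S::pBVR3) and 2352, 2329.6 and 2078 (CAB3::pBVR2). The 3 CAB3::pBVR2 arrays lay above all others, and the differences from No-0 WT were 1.54 in 35S::pBVR3 and 2.17 in CAB3::pBVR2.

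UGT71C1, a UDP-glucosyltransferase, which attaches glucose to small molecules, was the member closest to overlapping with No-0 WT. It had signals of 73.2, 8.3 and 50.8 (No-0 WT), 136, 141 and 74.5 (35S::pBVR3) and 183, 90.5 and 75.3 (CAB3::pBVR2). The lowest pBVR array was only 0.03 above the highest No-0 WT array on the log2 scale, and the second No-0 WT array, which was not above background, was far below the other two. The differences of 1.84 and 1.78 rest on that array, since the smaller of them was 0.82 without it. Of 6 other genes measured under a UGT71 name, UGT71B5 was called higher in both lines, with a log2 change of 1.16 in 35S::pBVR3 (adjusted p = 0.0366, limma) and 1.47 in CAB3::pBVR2 (adjusted p = 0.00353). Its call in 35S::pBVR3 was lost on leaving out 6 of the 9 arrays in turn, with adjusted p between 0.0523 and 0.117 (limma). It was lost as well with no filter on signal (adjusted p = 0.1) and in a fit of these 2 lines alone (adjusted p = 0.061, limma). None of the other 5 was called higher.

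REM24 (AT2G16210) belongs to the reproductive meristem family, whose proteins carry plant-specific B3 DNA-binding domains. It was read at 28.8, 25.5 and 9.51 (No-0 WT), 156, 68.0 and 90.8 (35S::pBVR3) and 169, 146 and 119 (CAB3::pBVR2). Only 1 No-0 WT array was above background, all 6 pBVR arrays were, and the lines overlapped with each other (2.37 and 2.90 above No-0 WT). SIS, a gene named for a serine-rich protein induced by salt, was read at 502, 510.2 and 489 (No-0 WT), 1607, 2087 and 2324 (35S::pBVR3) and 2033, 2191 and 1444 (CAB3::pBVR2). Its No-0 WT arrays were nearly identical, and its differences from them were 1.99 in 35S::pBVR3 and 1.89 in CAB3::pBVR2, so that CAB3::pBVR2 minus 35S::pBVR3 was -0.09.

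**Figure D3:**
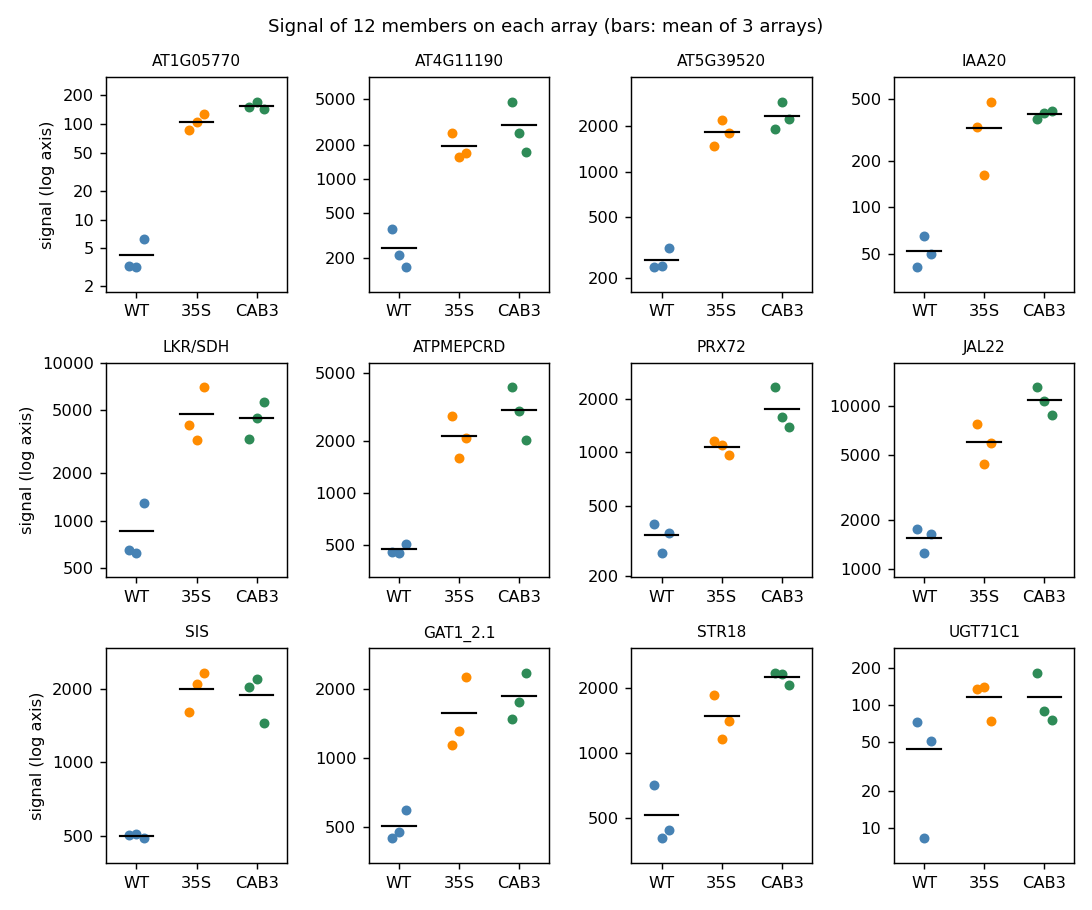
Scaled signal (log axis, 1 range per panel) of 12 members on each of the 9 arrays, with No-0 WT (WT, blue), 35S::pBVR3 (35S, orange) and CAB3::pBVR2 (CAB3, green), and bars at the arithmetic mean of 3 arrays. No array of either pBVR line reaches down to No-0 WT in any panel, the gap is narrowest in UGT71C1, and the green points of JAL22 and STR18 lie above all orange ones.

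The members with the largest increases were mostly genes without a described product in the annotation used here. AT1G05770 had signals of 3.29, 3.19 and 6.24 (No-0 WT), 86.7, 105 and 127 (35S::pBVR3) and 151, 170.3 and 142 (CAB3::pBVR2). It was the only member that was not above background on any No-0 WT array, so that its fold is given as a lower bound against the background. It was at least 3.6-fold higher in 35S::pBVR3 and at least 5.28-fold higher in CAB3::pBVR2, and the pBVR lines did not overlap with each other.

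AT4G11190 was read at 361, 212 and 167 (No-0 WT), 2555, 1567 and 1676 (35S::pBVR3) and 4762, 2511 and 1741 (CAB3::pBVR2). The array numbered 1 was the highest in each line, and the differences from No-0 WT were 3.01 and 3.56. AT5G39520 had signals of 236, 238 and 316 (No-0 WT), 1465, 2195 and 1782 (35S::pBVR3) and 1902, 2866 and 2218 (CAB3::pBVR2). The spread within each of its lines was small beside the differences from No-0 WT, 6.85-fold and 8.79-fold.

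Low readings in No-0 WT marked 3 further genes of large difference. AT2G15010 was read at 18.2, 57.8 and 3.68 (No-0 WT), 296, 108 and 103 (35S::pBVR3) and 105, 112 and 96.4 (CAB3::pBVR2). A single No-0 WT array was above background, the first 35S::pBVR3 array stood apart from the other 5 pBVR arrays, and the log2 differences were 3.25 and 2.73. The smaller of them was 1.69 without the third No-0 WT array, and 1.33 with 32 added to each signal. AT5G40020 had signals of 29.6, 7.13 and 54.1 (No-0 WT), 204, 118 and 104 (35S::pBVR3) and 310.4, 166 and 124 (CAB3::pBVR2), with differences of 2.59 and 3.04. AT4G01390 had signals of 37.1, 7.77 and 24.2 (No-0 WT), 162, 52.0 and 164 (35S::pBVR3) and 190.0, 124 and 185 (CAB3::pBVR2), with differences of 2.54 and 3.10. In both of these genes the second No-0 WT array was the lowest, and the pBVR lines overlapped.

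Of the probe sets without a gene name, 4 were among the 12 with the largest increases. The probe set 251428_at was read at 232, 379.5 and 533 (No-0 WT), 6029.9, 5437 and 7115 (35S::pBVR3) and 4038, 5464 and 4763 (CAB3::pBVR2), or 17.1-fold and 13.1-fold higher. It was above background on every array and, unlike most members, had the higher mean in 35S::pBVR3, with a difference of -0.38 (CAB3::pBVR2 minus 35S::pBVR3, log2) and overlap between the lines. For 250662_at the signals were 442, 695 and 712 (No-0 WT), 5419, 4688 and 3792 (35S::pBVR3) and 4296, 4855 and 2939 (CAB3::pBVR2), again with the slightly higher mean in 35S::pBVR3. For 249895_at they were 133, 150.4 and 179 (No-0 WT), 1408, 402 and 1368 (35S::pBVR3) and 1595, 745 and 1755 (CAB3::pBVR2), and the array numbered 2 was the lowest in both pBVR lines. For 262310_at they were 45.9, 10.2 and 15.6 (No-0 WT), 174, 60.5 and 138 (35S::pBVR3) and 253, 189 and 102 (CAB3::pBVR2), with 1 No-0 WT array above background.

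Some probe sets can read several transcripts. Of the members, 7 were of a type whose probes match more than 1 transcript, and 2 of these were assigned to annotated pseudogenes. The first, for AT1G42705, was read at 76.2, 34.4 and 61.4 (No-0 WT), 512, 445 and 494 (35S::pBVR3) and 307, 548 and 488 (CAB3::pBVR2), with differences of 3.15 and 3.00. The second, for AT5G34920, was read at 36.3, 39.6 and 79.6 (No-0 WT), 154, 159 and 218 (35S::pBVR3) and 132, 177 and 157 (CAB3::pBVR2), with differences of 1.85 and 1.67. Which of the matching transcripts gave the signal of these probe sets was not tested.

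The pBVR lines were alike by the rule, but they were not evenly placed within its limit. CAB3::pBVR2 had the higher mean for 62 members and 35S::pBVR3 for 17. The median difference, CAB3::pBVR2 minus 35S::pBVR3, was 0.41 over the members, with a range from -0.70 to 0.87. Over all kept probe sets it was 0.03, and 53.1% of them were higher in CAB3::pBVR2. Against No-0 WT, 8.58% of all kept probe sets were called higher in CAB3::pBVR2 and 2.31% in 35S::pBVR3 (limma). The lean toward CAB3::pBVR2 is thus not shown to be particular to the members. A difference above 0.5 was found for 32 members and one below -0.5 for 2, while 20 members were within 0.2. The arrays of the 2 lines overlapped for 60 members and did not for 19, where 27.4% of all kept probe sets did not overlap, counting both directions. All of these 19 members were higher in CAB3::pBVR2. A share for that direction alone is not given over all kept probe sets, so the 19 are listed as a description only. In the limma contrast of CAB3::pBVR2 and 35S::pBVR3, 2 of 79 members had an adjusted p under 0.05, where 8.43% of all kept probe sets did. The rule had limited this same difference to under 0.9, so nothing is read from that count about a likeness of the lines.

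**Figure D4:**
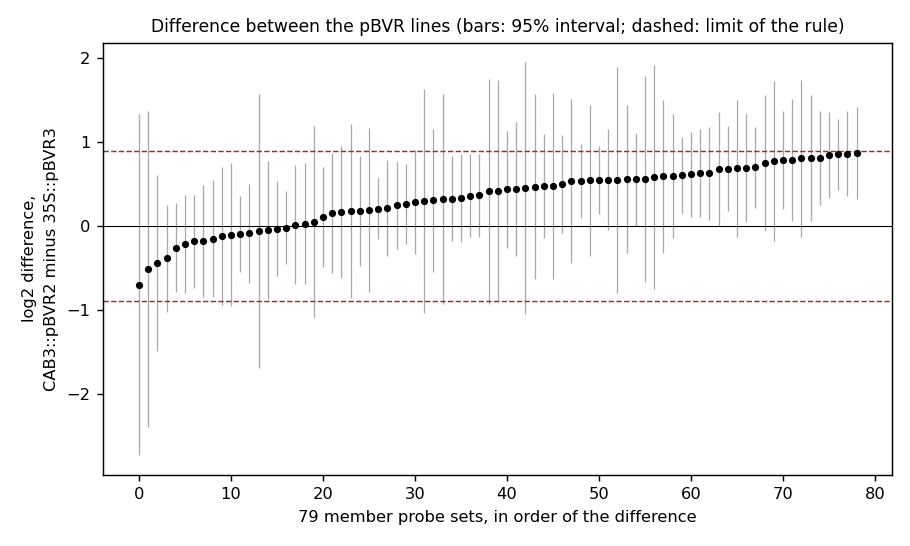
Log2 difference between the pBVR lines, CAB3::pBVR2 minus 35S::pBVR3, for each of the 79 members in increasing order, with bars for the 95% interval from the limma fit and dashed lines at the limits of 0.9. The points run from -0.70 to 0.87 with 62 above 0, and 60 of the intervals include 0, a count not given over all kept probe sets.

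The 19 members whose lines did not overlap included 8 with a gene name, AT1G05770, AT2G41190, AT3G05920, JAL22, AT1G61590, PRX72, AT2G30540 and STR18. AT2G41190 was read at 264, 336 and 445 (No-0 WT), 1798, 1463 and 2103 (35S::pBVR3) and 2311, 3988 and 3083 (CAB3::pBVR2). The order of the 3 lines held for every array of this gene, and the differences from No-0 WT were 2.38 and 3.16. AT2G30540, close to the limit of 0.9, had signals of 101, 78.4 and 69.8 (No-0 WT), 246, 215 and 276 (35S::pBVR3) and 471, 379 and 487 (CAB3::pBVR2), and AT1G61590 had 126, 80.7 and 139 (No-0 WT), 417, 440.2 and 416 (35S::pBVR3) and 793, 594 and 696 (CAB3::pBVR2). Both were likewise stepped across the lines, with differences between the pBVR lines of 0.86 and 0.70.

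At the other end were members with the higher mean in 35S::pBVR3. The probe set 260716_at had the lowest difference between the lines, -0.70, with signals of 22.6, 189.6 and 181 (No-0 WT), 509, 2532 and 371 (35S::pBVR3) and 336, 698 and 477 (CAB3::pBVR2). Its second 35S::pBVR3 array was far above the other 2, so that the interval of the difference ran from -2.73 to 1.34. AT5G62280 had signals of 238, 179 and 157 (No-0 WT), 1315, 365 and 947 (35S::pBVR3) and 899, 381 and 531 (CAB3::pBVR2), and in both pBVR lines the first array was the highest and the second the lowest. Its differences from No-0 WT were 2.03 in 35S::pBVR3 and 1.59 in CAB3::pBVR2.

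These differences were limited by the rule, so that their intervals describe precision and not a test of likeness. For the whole set, the distance from the difference to either end of its 95% interval had a median of 0.68 and ran from 0.36 to 2.04 on the log2 scale. For 60 members the interval included 0, a count that is not given over all kept probe sets and from which nothing is read. For LKR/SDH the difference was -0.05 with an interval of -0.87 to 0.77, and for AT3G19390 it was -0.02 with an interval of -0.45 to 0.41. For IAA20 it was 0.44 with an interval of -0.35 to 1.24, which reaches past the limit of 0.9. Members so described as alike could therefore still differ by the widths given.

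The members just inside and just outside each limit show how the set depends on where the limits lie. At the limit on the 35S::pBVR3 difference, 266156_at (1.52), AT1G47480 (1.52) and 251084_at (1.53) were the lowest inside, and 262454_at (1.498), AT5G49690 (1.49) and AT2G17710 (1.49) the nearest of 193 probe sets that failed on this limit alone. At the limit on the CAB3::pBVR2 difference, the lowest inside were AT5G62280 (1.59), AT1G62770 (1.65) and AT5G34920 (1.67), and 259789_at (1.45), AT5G57910 (1.43) and AT1G07040 (1.38) were the nearest of 8 outside. The 35S::pBVR3 side thus decided membership far more often than the CAB3::pBVR2 side.

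At the limit on the difference between the lines, JAL22 (0.87), 249848_at (0.86) and AT2G30540 (0.86) lay inside, and 259291_at (0.90), AT4G13580 (0.92) and AT2G43535 (0.95) were the nearest of 29 outside. At the signal limit in 35S::pBVR3, AT4G18530 (mean 103.0), 262226_at (104.7) and REM24 (104.9) lay inside, and 257280_at (92.3), 259297_at (91.0) and AT4G26470 (83.6) were the nearest of 8 outside. At that in CAB3::pBVR2, 246254_at (102.7), AT2G15010 (104.4) and PRX25 (115.8) lay inside, and 250695_at (95.1) and 253894_at (65.1) were the 2 outside. For the overlap with No-0 WT, the gap between the lowest pBVR array and the highest No-0 WT array was 0.03 for UGT71C1, 0.08 for AT1G14930 and 0.24 for AT4G18530 inside, and -0.09 for AT4G04990, -0.12 for AT1G23140 and -0.24 for 265084_at, the nearest of 9 outside.

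Members at these limits had the following signals. AT1G47480 was read at 49.4, 69.7 and 73.8 (No-0 WT), 156, 243 and 159 (35S::pBVR3) and 249.6, 215 and 223 (CAB3::pBVR2). 266156_at was read at 153, 118 and 164 (No-0 WT), 349, 567 and 355 (35S::pBVR3) and 657, 859 and 733 (CAB3::pBVR2). 251084_at was read at 175, 240.4 and 243 (No-0 WT), 638, 608 and 629 (35S::pBVR3) and 1033, 1568 and 622 (CAB3::pBVR2). In all 3 of them the groups were well apart from No-0 WT, and it was the 35S::pBVR3 mean that sat near its limit. For 249848_at the signals were 241, 234 and 181 (No-0 WT), 629, 781 and 512 (35S::pBVR3) and 1407, 1182 and 908 (CAB3::pBVR2), stepped across the lines with no overlap.

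Dim probe sets sat at the signal limit. AT4G18530 was read at 26.0, 12.3 and 69.0 (No-0 WT), 139, 88.4 and 81.7 (35S::pBVR3) and 104, 205 and 153 (CAB3::pBVR2). 262226_at was read at 33.7, 24.6 and 39.0 (No-0 WT), 95.1, 109.8 and 109 (35S::pBVR3) and 162, 202 and 112 (CAB3::pBVR2). 246254_at was read at 31.0, 11.2 and 30.5 (No-0 WT), 110.0, 113 and 99.1 (35S::pBVR3) and 92.5, 137 and 78.9 (CAB3::pBVR2). Of these, AT4G18530 had 1 No-0 WT array close to its lowest 35S::pBVR3 arrays, and the other 2 were clear of No-0 WT. A pair of dim members, AT1G66440 and AT5G59930, were read at 57.3, 32.9 and 12.7 (No-0 WT), 172, 107 and 124 (35S::pBVR3) and 174, 129 and 149 (CAB3::pBVR2) and at 55.0, 63.7 and 33.6 (No-0 WT), 145, 211 and 172 (35S::pBVR3) and 152, 182 and 179 (CAB3::pBVR2) respectively. The pBVR lines overlapped in both genes, and the differences from No-0 WT were 2.19 and 2.38 for AT1G66440 and 1.83 and 1.80 for AT5G59930.

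Signal values of the members lay near the background in part of the set. In No-0 WT, 61 members were above background on all 3 arrays, 17 on 1 or 2 of them, and only AT1G05770 on none. All members were above background on every pBVR array. The coefficient of variation between arrays of a line had a median over the members of 27.4% for No-0 WT, 25.3% for 35S::pBVR3 and 22% for CAB3::pBVR2, against 15.1%, 16.4% and 17.1% over all kept probe sets. Levels of different probe sets depend on their probes and were not compared.

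Arrays of the same replicate number moved together in many members. The array that was highest in 35S::pBVR3 carried the same number as the highest array of CAB3::pBVR2 for 45 of the 79 members, number 1 in 28 of them, number 2 in 9 and number 3 in 8. Over the members, the first 35S::pBVR3 array was the highest of its line for 40 and the second was the lowest for 39, with median deviations from the mean of the line of 0.22 and -0.18 on the log2 scale. In CAB3::pBVR2 the first array was the highest for 38 members and the third the lowest for 41. Over all kept probe sets the median deviations of these 4 arrays were between -0.03 and 0.04. Deviations of the 2 pBVR lines were also correlated over all kept probe sets between arrays of the same number (r = 0.373 to 0.391). The counts above were not made over all kept probe sets, so they are not shown to be particular to the members.

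The genes of the members were spread over the genome. Of the 40 named genes, 14 lay on chromosome 1, 9 on chromosome 2, 3 on chromosome 3, 5 on chromosome 4 and 9 on chromosome 5, and no 2 of them lay within 25 kb of each other. The genes on either side, up to 2 in each direction, were examined as well. The rule had been applied to their probe sets too, and those counted here did not meet it, so these values do not lie outside the selection. Of 45 neighbouring probe sets that were measured, 2 were called higher in 35S::pBVR3 and 7 in CAB3::pBVR2, whereas 0 were called lower in 35S::pBVR3 and 6 in CAB3::pBVR2 (limma, adjusted p under 0.05 and at least 2-fold). At an unadjusted p under 0.05, 7 were higher and 8 lower in 35S::pBVR3. Over all kept probe sets, 2.31% were called higher and 1.11% lower in 35S::pBVR3, and 8.58% higher and 10.9% lower in CAB3::pBVR2. The median log2 differences of the neighbours were 0.10 and 0.24.

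Both neighbours that were called in both lines stood directly beside a member. AT1G14930 was read at 46.5, 262 and 167 (No-0 WT), 645, 749 and 278 (35S::pBVR3) and 760.1, 612 and 683 (CAB3::pBVR2), and the third 35S::pBVR3 array was close to the highest No-0 WT array. The smaller of its differences, 2.01, was 1.29 without the first No-0 WT array. The next gene, AT1G14940, was read at 6.38, 2.98 and 3.68 (No-0 WT), 82.8, 59.3 and 57.6 (35S::pBVR3) and 99.7, 61.0 and 96.1 (CAB3::pBVR2). Its log2 change was 3.99 ± 0.31 (SE) in 35S::pBVR3 (adjusted p = 0.000721, limma) and 4.34 ± 0.31 in CAB3::pBVR2 (adjusted p = 2.21e-05). As No-0 WT was not above background on any array, the change is a bound of at least 2.25-fold and at least 2.87-fold, and AT1G14940 missed the members only through the signal limit of 100.

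AT1G67910 was read at 489, 381 and 297 (No-0 WT), 1642, 761 and 1456 (35S::pBVR3) and 1582, 1042 and 1144 (CAB3::pBVR2), or 3.21-fold and 3.24-fold higher. The neighbouring AT1G67920 was read at 63.4, 60.4 and 73.8 (No-0 WT), 128, 210.4 and 206 (35S::pBVR3) and 234, 394 and 244 (CAB3::pBVR2), with all pBVR arrays above No-0 WT. It rose by 1.43 (adjusted p = 0.0159, limma) and 2.10 (adjusted p = 0.000311). Its call in 35S::pBVR3 was lost without the second No-0 WT array (adjusted p = 0.06), without the third 35S::pBVR3 array (adjusted p = 0.0544) and with no filter on signal (adjusted p = 0.0542, limma).

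Other neighbours passed the test only for CAB3::pBVR2 over No-0 WT. AT3G19390 was a member with signals of 716, 540.3 and 561 (No-0 WT), 2537, 1923 and 2944 (35S::pBVR3) and 2373, 2299 and 2533 (CAB3::pBVR2), and its pBVR lines were almost equal. AT3G19370, 2 genes away, and AT3G19400, directly beside it, rose in CAB3::pBVR2 by 1.48 (adjusted p = 0.00605) and 1.01 (adjusted p = 0.00123, limma). They had log2 changes of 0.37 and 0.44 in 35S::pBVR3 (adjusted p = 0.503 and 0.115). PUB25, which lies between AT3G19370 and the member, was called in neither line (log2 change 0.55 in CAB3::pBVR2, adjusted p = 0.177, limma). AT5G23840, beside the member AT5G23830, rose by 2.68 in CAB3::pBVR2 (adjusted p = 0.0161) with a log2 change of 1.91 in 35S::pBVR3 (adjusted p = 0.122, limma), and AT1G66450, near the member AT1G66440, rose by 1.16 in CAB3::pBVR2 (adjusted p = 0.000547), beside 0.55 in 35S::pBVR3 (adjusted p = 0.0582). AT1G23140, near AT1G23120, rose by 1.56 in CAB3::pBVR2 (adjusted p = 0.0438) and had a log2 change of nearly the same size, 1.58, in 35S::pBVR3 (adjusted p = 0.0928, limma). Of these 5 called neighbours, only AT1G66450 differed between the pBVR lines by the contrast of the lines themselves (0.61, CAB3::pBVR2 minus 35S::pBVR3, adjusted p = 0.0476, limma), and the adjusted p of the other 4 was between 0.0608 and 0.99.

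Some neighbours were lower than in No-0 WT. AT2G43030, near ATPMEPCRD, fell from 14941 ± 1241 in No-0 WT to 6252 ± 780.4 in CAB3::pBVR2 (SD, n = 3; log2 change -1.26, adjusted p = 0.000336, limma), and AT1G62780, beside the member AT1G62770, fell from 624 ± 79.2 to 219 ± 66.1 (log2 change -1.54, adjusted p = 0.00139). In 35S::pBVR3 both were lower too, by less than the 2-fold a call needs, with log2 changes of -0.58 (adjusted p = 0.0498) and -0.94 (adjusted p = 0.0469, limma). AT1G62770 itself was read at 2161, 1285 and 1275 (No-0 WT), 5562, 3295 and 4727 (35S::pBVR3) and 4686, 5578 and 4157 (CAB3::pBVR2).

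**Figure D5:**
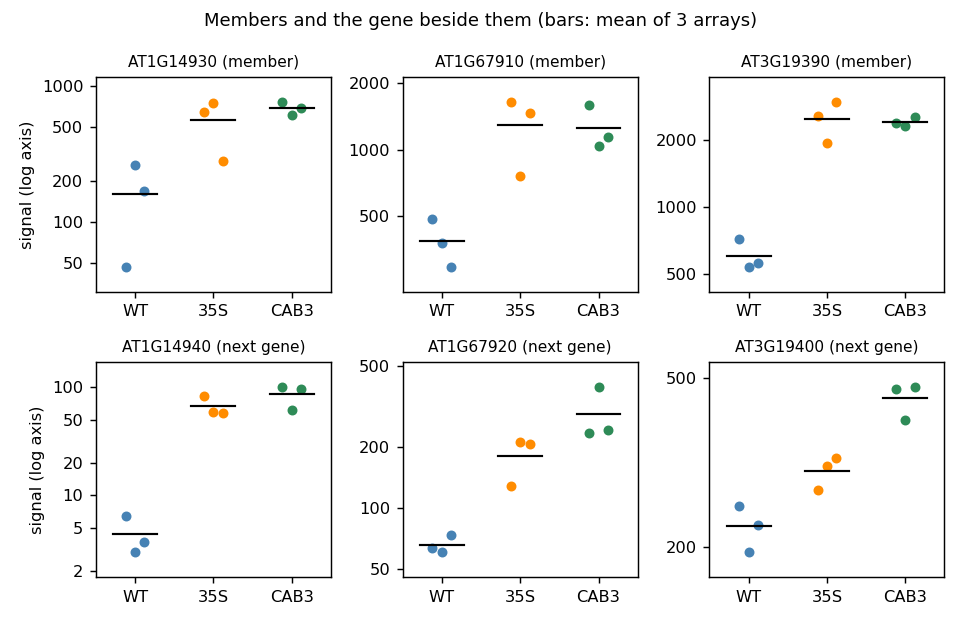
Scaled signal (log axis, 1 range per panel) on each array for 3 members (top) and for the neighbouring gene of each (bottom), with No-0 WT (WT, blue), 35S::pBVR3 (35S, orange) and CAB3::pBVR2 (CAB3, green) and bars at the mean of 3 arrays. AT1G14940 and AT1G67920 rise in both pBVR lines, and AT3G19400 rises past the test only in CAB3::pBVR2, where its 3 arrays lie above all others.

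Genes of pathways that phytochromes are known to govern were examined beside the members. Among targets of the phytochrome-interacting factors and shade genes, 3 of 15 were measured. HAT2, a homeobox gene of the shade response, rose by 1.21 in 35S::pBVR3 (adjusted p = 0.027, limma) and 1.42 in CAB3::pBVR2 (adjusted p = 0.00313), with means of 191 ± 5.39 in No-0 WT, 459 ± 155 and 527 ± 164 (SD, n = 3). FHL, whose product helps phytochrome A into the nucleus, rose by 1.27 (adjusted p = 0.0171) and 1.66 (adjusted p = 0.000692, limma), from 182 ± 26.9 to 445 ± 109 and 579.6 ± 125. Both genes lost their call in 35S::pBVR3 without No-0 WT array 1 or 2, or without 35S::pBVR3 array 1 or 3, and HAT2 also without No-0 WT array 3 (adjusted p between 0.0515 and 0.0821, limma).

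Among the auxin response genes, 3 of 16 were measured. WES1, which encodes an enzyme that conjugates auxin to amino acids, rose in CAB3::pBVR2 by 1.28 (adjusted p = 0.0076, limma) and had a log2 change of 0.86 in 35S::pBVR3 (adjusted p = 0.0952). IAA29 and GH3.3 were not called in either line.

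Of the expansins, which loosen walls, and the XTH enzymes, which cut and rejoin xyloglucan, 12 of 30 were measured, and the median log2 difference of the list was 0.61 for 35S::pBVR3 and 1.29 for CAB3::pBVR2 (-0.03 and 0.02 over all kept probe sets). In 35S::pBVR3 0 were called (limma), with 2 at an unadjusted p under 0.05, and 6 rose in CAB3::pBVR2, namely EXPA4, EXPA8, EXPB1, EXPB3, XTH19 and XTH33, with XTH18 called as well with the replicate number as a block (adjusted p = 0.0309, limma). EXPA8, for example, had a mean of 551 ± 158 in No-0 WT, beside 878 ± 502 for 35S::pBVR3 and 2337 ± 931 for CAB3::pBVR2 (log2 change 2.05, adjusted p = 0.00429, limma). Between the lines the adjusted p of these 6 was between 0.0589 and 0.372 (limma, without the block). A difference between CAB3::pBVR2 and 35S::pBVR3 was thus not shown by that fit, which leaves the replicate numbers out. None of these 12 genes was a member, as the difference in 35S::pBVR3 was below 1.5 for all 12. The other genes of the list had no kept probe set under a gene name. Whether any of them is among the 37 members without a gene name was not examined.

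In the remaining lists, HYH, a bZIP regulator of light responses, fell by 1.59 in CAB3::pBVR2 (adjusted p = 0.00383, limma). Its log2 change in 35S::pBVR3 was -0.96 (adjusted p = 0.0866), and a difference between the pBVR lines was not shown (adjusted p = 0.268, limma). NAI2, a gene of the ER bodies, rose by 1.79 in CAB3::pBVR2 (adjusted p = 0.000683) and had a log2 change of 0.57 in 35S::pBVR3 (adjusted p = 0.185, limma). For NAI2 the lines differed by 1.21 (CAB3::pBVR2 minus 35S::pBVR3, adjusted p = 0.0189, limma). Of the flavonoid list, 3 genes were measured. DFR, an enzyme of anthocyanin synthesis, fell by 1.48 in 35S::pBVR3 (adjusted p = 0.0161, limma). It was not above background on any CAB3::pBVR2 array and was at least 2.84-fold lower there than in No-0 WT (adjusted p = 0.000892). CHIL had log2 changes of -0.65 in 35S::pBVR3 (adjusted p = 0.0214) and 0.89 in CAB3::pBVR2 (adjusted p = 0.000899), both under 2-fold, and the lines differed by 1.54 (CAB3::pBVR2 minus 35S::pBVR3, adjusted p = 0.000409, limma). UGT78D2 had log2 changes of -0.58 and -0.60 (adjusted p = 0.0533 and 0.0181). No gene was called in the lists of ethylene, abscisic acid and cold, lipid mobilisation, starvation, glutathione transferase or clock genes, of which 1 to 3 genes each were measured. Of these 11 genes, 1 had an unadjusted p under 0.05 in 35S::pBVR3 and 4 did in CAB3::pBVR2 (limma). In CAB3::pBVR2, COR47 had a log2 change of 0.996 (adjusted p = 0.0138) and AKINBETA1 of -0.54 (adjusted p = 0.0356, limma), both under 2-fold. With the replicate number as a block, GSTU20 was called lower (adjusted p = 0.00497) and GSTU25 higher (adjusted p = 0.00751, limma) in CAB3::pBVR2. No kept probe set was named for a gene of the gibberellin, seed, jasmonate, nitrate and heat shock lists, so these were not analysed here.

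In bulk RNA of whole seedlings, fewer cells of a type and less RNA per cell cannot be told apart. Markers of single cell types were measured only in part. Of 10 mesophyll markers, 1 (RCA, encoding rubisco activase) was measured. It read 20474 to 22826 on No-0 WT arrays, 12791 to 19953 on 35S::pBVR3 arrays and 6727 to 8360.4 on CAB3::pBVR2 arrays, and it fell in the last by 1.52 on the log2 scale (adjusted p = 0.000402, limma). Of 4 guard cell markers, 1 (FMA) was measured, at 200.3 to 362, 109.0 to 135 and 56.7 to 141 in the same order, and it too fell in CAB3::pBVR2, by 1.79 (adjusted p = 0.00386, limma). The log2 change of FMA in 35S::pBVR3 was -1.12 (adjusted p = 0.0774), and a difference between the pBVR lines was not shown (adjusted p = 0.3, limma). Of 5 root hair markers, EXPA7 and EXPA18 were measured and summed to 86.4 to 134, 51.0 to 160 and 103 to 236, and neither was called. Markers of vascular tissue, xylem and root endodermis were not measured under a gene name. The part of these cell types in the levels of the members was not tested.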

How the data were processed

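Transcript levels were measured on 9 ATH1 arrays (Affymetrix), 3 for the wild type and 3 for each pBVR line, and groups and replicate numbers came from the sample labels. The deposited table holds intensities that the authors obtained with MAS5, 1 per probe set and array, on a linear scale. Its version and settings are not stated by the labels or the paper, and no detection calls were used. The values themselves show that each array had been scaled to a mean of 500 after trimming of 2% at each end, so that a change shared by most transcripts cannot be seen. The methods' further steps in GeneSpring (shift, baseline, flag filter) are not in these values.

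Of 22810 probe sets, 64 controls were left out, and 3 zeros were replaced by 0.1, the lowest positive intensity. Each array was shifted on the log2 scale by its 75th percentile (528.5 to 615.5 in deposited intensity), and signals are given on the linear scale after that shift. Probe sets at or above the 40th percentile of at least 1 array were kept for tests (15436). Background is the highest of 27 bacterial control probe sets on an array (27.0 to 48.0 after the shift), and a fold against a line below it on every array is a lower bound. Precision is limited by the number of arrays, 3 in each line.

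All 9 arrays entered 1 limma fit (limma 3.58.1, R 4.3.3, lmFit and eBayes) with Benjamini-Hochberg adjustment over the kept probe sets. Calls needed an adjusted p under 0.05 and a 2-fold change. The fit was tested on simulated data with known changes. An exact permutation test of 3 against 3 arrays cannot go below 0.1, so none is given.

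The platform table gave 1 gene for 13513 probe sets, several for 503 and none for 8730, and 13484 of the first were matched to the RefSeq annotation (names and neighbours only). The members and the 17 pathway and 6 marker lists were chosen with earlier results of these data known. Every array is given for the 12 members with the largest smaller increase and for those nearest the limits or sharing a family. The other members, such as LKR/SDH, ATPMEPCRD, GAT1_2.1, STR18 and SIS, and the gene families and neighbours, were chosen after the values were seen.

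Deviations from the line means were correlated between arrays that share a replicate number (r = 0.207 to 0.391 over 9 pairs of arrays, against -0.263 to -0.051 over 18 pairs with different numbers, across probe sets), so the numbers were taken to pair the samples. The pairing comes from this check and is stated in no label, and the fit without the block is reported. Sequences were not analysed here. Alternatives were other scalings, filters, limits and an added floor, a replicate block, a fit of 2 lines alone and each array left out.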

Additional observations from a re-analysis of the deposited data

How the results depend on the processing

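The number of members, 79, was 302 with a limit of 1 on the log2 difference from No-0 WT, 25 with a limit of 2 and 45 with a limit of 0.5 between the pBVR lines. It was 77 after a shift by the median, 79 after quantile normalization (72 of them shared), and 80 with the signal limit on deposited intensities, an alternative chosen after seeing the data. Leaving out 1 array gave 72 to 111 members, with 32 of the 79 members kept under all 9 omissions and 47 lost at least once. The median difference between the pBVR lines, 0.41, was 0.317 to 0.454 when an array was left out. Adding 32 to each signal lowered the smaller difference of all 31 members given in full by the naming rule, by over 1.5 times for 12 of them, among them AT1G05770, not above background in No-0 WT, from 4.70 to 1.92. Probe sets called higher in 35S::pBVR3, 357 in number, were 158 with no filter and 174 to 340 when an array was left out, with 174 without No-0 WT replicate 2, 224 without 35S::pBVR3 replicate 1 and 194 without 35S::pBVR3 replicate 3. Those called higher in CAB3::pBVR2, 1325 in number, were 862 with the stricter filter, and 1170 to 1342 when an array was left out. Of the pathway list genes, 2 were called higher in 35S::pBVR3, but 0 with no filter and 0 to 2 when an array was left out. DFR was the 1 called lower there, but 0 with no filter, with the stricter filter or with 32 added, and 0 to 1 when an array was left out. In CAB3::pBVR2 2 were called lower, but 1 with the stricter filter, which tests fewer genes. The cause of the other shifts was not tested. With the replicate block, 469 and 1462 probe sets were called higher in 35S::pBVR3 and CAB3::pBVR2, and WES1 in 35S::pBVR3 (adjusted p = 0.0453, limma, log2 change 0.86) passed the p threshold. XTH18, GSTU20 and GSTU25 were then called in CAB3::pBVR2 (adjusted p = 0.0309, 0.00497 and 0.00751), and the block changed no other call among the list genes. Signals near background in No-0 WT limit the size of the difference for 18 members.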
